A study of Mus musculus with 14 samples.

Results

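The extracellular matrix is the protein scaffold around cells, and 127 array probes for 114 mouse genes of that scaffold, its cell surface receptors and the enzymes that cut it were followed here in MIN6 cells, an insulin-secreting line of mouse pancreatic beta cells. Members were all probes whose only platform symbol, updated through its Entrez identifier, began as a collagen chain (Col), a laminin chain (Lam), a matrix metalloprotease (Mmp), an inhibitor (Timp), an Adamts or Adamts-like protein, an integrin chain (Itga, Itgb), or was Fn1, Sparc, Nid1 or Nid2. They are 127 of 23232 probes, and 114 of the 15099 genes that had a singly named probe. All 127 had values on all 14 arrays and were tested. The rule took symbols and no measured value, and by their first letters it also took Itgb1bp1, Itgb1bp2 and Itgb3bp, which encode integrin-binding proteins and not integrin chains.

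Sirt1, an NAD-dependent protein deacetylase, was altered in 4 stable lines. Sir2OE1 (3 arrays) and Sir2OE2 (4 arrays) were infected with a pBabe-Sirt1 retrovirus that carries mouse Sirt1 and were selected in 280 µg/ml G418. Sir2KD1 (3 arrays) and Sir2KD2 (4 arrays) were transfected with mU6pro vectors that express small interfering RNAs against Sirt1, together with a neomycin resistance plasmid, and were selected in 400 µg/ml G418. The RNA set against each overexpressing line was a pool from Neo1 and Neo2, which carry the empty virus, and the RNA set against each knockdown line came from mU6pro, which carries the empty vector. All lines came from MIN6 at passage 24, carried a resistance marker, and were kept at 5 mM glucose for the last 4 days of culture. The labels do not say that slides of a line come from different cultures. Errors and p-values therefore cover array-to-array spread, possibly technical in part. The Sirt1 probe was not called in any line: its ratio was 0.08 ± 0.12 in Sir2OE1, -0.33 ± 0.10 in Sir2OE2, -0.10 ± 0.12 in Sir2KD1 and 0.13 ± 0.10 in Sir2KD2 (SE), so it does not check the labels. Lines of a kind share their control RNA, and a ratio against 0 leaves out the spread of the controls.

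Each value is a log2 ratio between the channels of an array, centred per probe by the depositors. Channel 2 was assumed to be the numerator, and the sign was turned wherever the line lay in channel 1. The overall direction of the ratio is not settled. A plus or minus side is therefore named in place of higher or lower RNA in the modified line, and comparing the sides of the overexpressing and knockdown lines assumes one channel on top throughout. "Called" means a Benjamini-Hochberg adjusted p under 0.05 over all 23230 probes tested, in a limma fit with a coefficient for each line. The values used here hold ratios without intensities, so the level of a gene, its signal over background and the presence of cell-type markers could not be checked. In bulk RNA, fewer cells of a type and less RNA per cell cannot be told apart.

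Collagens form fibrils, sheet-like networks or membrane-bound rods. Laminins, nidogens and type IV collagen together build the basement membrane, and integrins, paired alpha and beta chains, attach cells to it. Metalloproteases of the Mmp and Adamts families cut matrix proteins and are held in check by Timps. Beta cells in the mouse islet lie against a vascular basement membrane made largely by the neighbouring endothelial cells, and they bind it mainly through integrins with the Itgb1 chain.

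Of the 127 member probes, 6 were called in at least 1 line, a share of 4.72% against 6.4% of all probes tested. They were 5 collagens and 1 integrin chain: Col27a1, Col23a1, Col16a1, Col4a5, Col7a1 and Itgam. Sir2OE1 had 1 called member (all probes: 1.06%), Sir2OE2 had 2 (all probes: 2.81%), Sir2KD1 had 4 (all probes: 3.59%) and Sir2KD2 had 2 (all probes: 1.34%). All the called collagen ratios were on the minus side, 8 over the lines but from 5 genes, and the single plus ratio was that of Itgam in Sir2KD1. Of all probes, 138 were called minus and 109 plus in Sir2OE1, and 321 and 332 in Sir2OE2. In Sir2KD1 these were 461 and 372, and in Sir2KD2 172 and 140. No member was called by limma on the same side in both overexpressing lines (all probes: 0.551%). There 3 had an unadjusted p under 0.05 on one side in both (all probes: 700 of 23230). In both knockdown lines 2 were called on the same side (all probes: 0.659%), Col27a1 and Col23a1. The share of members called was thus near that of the array as a whole in every line. The median ratio over all members was 0.0207 in Sir2OE1, 0.0404 in Sir2OE2, -0.0275 in Sir2KD1 and 0.0326 in Sir2KD2, beside -0.00155, -0.00362, 0.0236 and -0.00273 over all probes. Read unturned, as line over control already, and fitted with no dye term, no member was called in any line. That fit cannot decide the direction. The centring makes the unturned values of a probe sum to 0 over 6 of the 7 arrays of each kind, which holds such ratios near 0. With the centring undone at the smallest whole-number percents that the values allow, every array of the line kept the called side in all 9 calls, though a multiplier shared by all of a probe's percents cannot be seen.

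**Figure D1:**
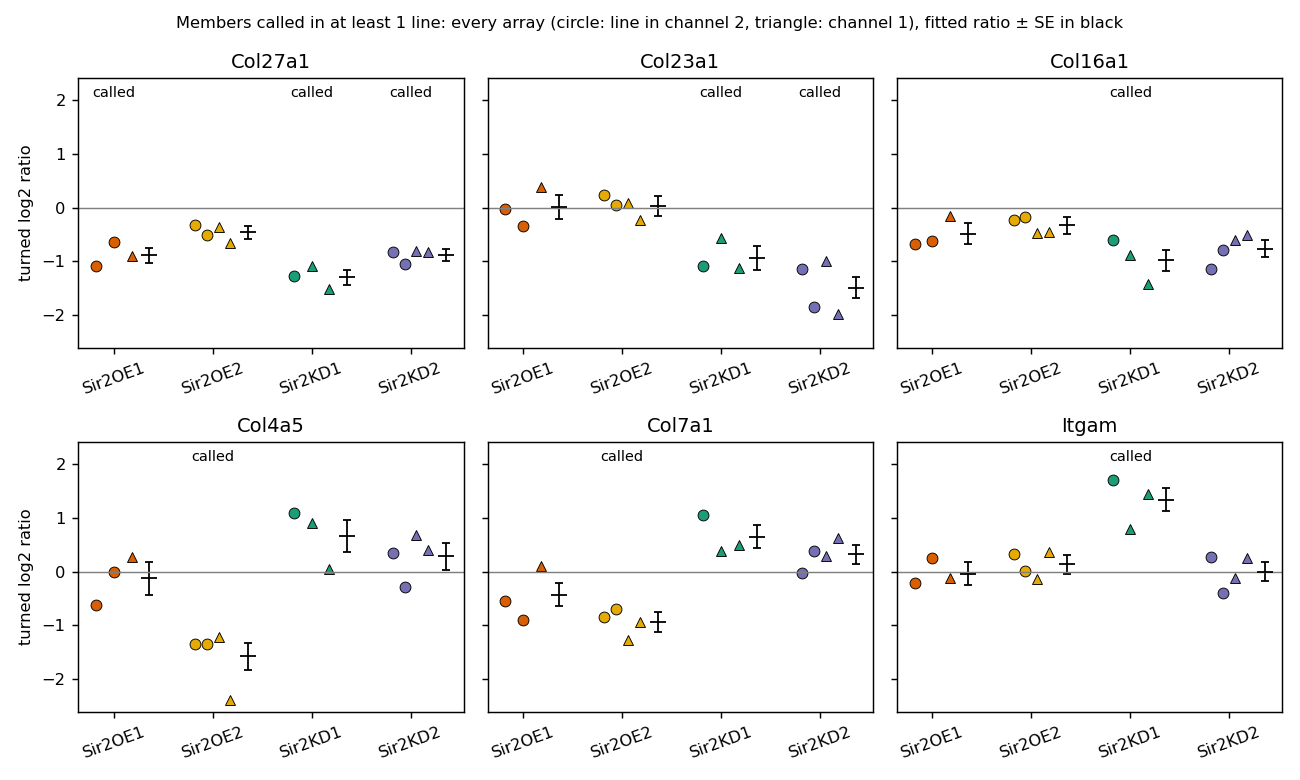
Turned log2 ratio (vertical axis) of the 6 members called in at least 1 line, 1 panel a gene, with each array as a symbol (circle, line in channel 2; triangle, line in channel 1) and the fitted ratio ± SE in black for Sir2OE1, Sir2OE2, Sir2KD1 and Sir2KD2. Col27a1 lies below 0 on all 14 arrays, Col23a1 below 0 on the 7 knockdown arrays, and Itgam at 0.79 or above on the 3 Sir2KD1 arrays.

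Col27a1, a fibrillar collagen chain known mainly from cartilage, had the lowest adjusted p of the members and was called in 3 of 4 lines. Its probe read -1.08, -0.64 and -0.90 on the Sir2OE1 arrays and -0.32, -0.51, -0.36 and -0.66 on the Sir2OE2 arrays. It read -1.26, -1.08 and -1.52 on the Sir2KD1 arrays and -0.83, -1.06, -0.80 and -0.83 on the Sir2KD2 arrays. All 14 arrays were on the minus side, whichever channel held the line. The centring makes the channels of a kind equal on average over the arrays it used, so their agreement is not a separate check. The fitted ratio was -0.89 ± 0.14 in Sir2OE1 (SE, n = 3 arrays; limma adjusted p = 0.0128) and -0.46 ± 0.12 in Sir2OE2 (SE, n = 4; limma adjusted p = 0.0709). It was -1.30 ± 0.14 in Sir2KD1 (SE, n = 3; limma adjusted p = 0.000572), a 2.46-fold ratio, and -0.88 ± 0.12 in Sir2KD2 (SE, n = 4; limma adjusted p = 0.00408). The difference between kinds was 0.41 ± 0.13 (SE) and did not pass (limma adjusted p = 0.147). The Sir2OE1 call was lost without slide 1 or slide 3 of that line, with limma adjusted p up to 0.131, while both knockdown calls held under each left-out array.

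Col23a1 encodes a collagen that spans the cell membrane, and its ratio stood apart from 0 in the knockdown lines. It read -0.04, -0.34 and 0.37 on the Sir2OE1 arrays and 0.23, 0.04, 0.09 and -0.23 on the Sir2OE2 arrays. In the knockdown lines it read -1.09, -0.56 and -1.12 on the Sir2KD1 arrays and -1.15, -1.84, -0.99 and -1.97 on the Sir2KD2 arrays. Every knockdown array was below every overexpression array, and within Sir2KD2 the arrays formed a lower and a higher pair that cut across the channels. The fitted ratio was 0.02 ± 0.23 in Sir2OE1 (SE, n = 3; limma adjusted p = 0.994) and 0.03 ± 0.19 in Sir2OE2 (SE, n = 4; limma adjusted p = 0.982). It was -0.94 ± 0.23 in Sir2KD1 (SE, n = 3; limma adjusted p = 0.0483) and -1.49 ± 0.19 in Sir2KD2 (SE, n = 4; limma adjusted p = 0.0033), which is 2.81-fold. The overexpressing minus the knockdown lines gave 1.24 ± 0.21 (SE; limma adjusted p = 0.00982), a call lost without Sir2OE1 slide 3 (limma adjusted p = 0.0536). The Sir2KD1 call lay at the threshold and was lost in 11 of 14 leave-one-out fits, with limma adjusted p up to 0.277, while the Sir2KD2 call held in all 14. The Sir2KD1 call was also lost with arrays scaled to one spread (limma adjusted p = 0.128).

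The regions just upstream of Col27a1 and Col23a1, the members called in both knockdown lines, are shown with those of Col4a5 and Col4a6, neighbours on the X chromosome that are transcribed away from each other and are described next. Each is the 250 bases before the gene's start in RefSeq's annotation of GRCm38.p6, 5′ to 3′ on the gene's strand. Capitals mark matches to a GC box (GGGCGG) or a CCAAT box (CCAAT), either strand. The windows are chr4:63215162-63215411 on the plus strand for Col27a1, chr11:51289670-51289919 on the plus strand for Col23a1, chrX:141475169-141475418 on the plus strand for Col4a5 and chrX:141474077-141474326 on the minus strand for Col4a6.
Col27a1: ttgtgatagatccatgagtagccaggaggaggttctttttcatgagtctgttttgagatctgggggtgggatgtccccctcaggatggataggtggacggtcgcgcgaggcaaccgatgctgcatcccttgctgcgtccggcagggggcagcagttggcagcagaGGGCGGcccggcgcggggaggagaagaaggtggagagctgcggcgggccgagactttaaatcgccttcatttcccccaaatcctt
Col23a1: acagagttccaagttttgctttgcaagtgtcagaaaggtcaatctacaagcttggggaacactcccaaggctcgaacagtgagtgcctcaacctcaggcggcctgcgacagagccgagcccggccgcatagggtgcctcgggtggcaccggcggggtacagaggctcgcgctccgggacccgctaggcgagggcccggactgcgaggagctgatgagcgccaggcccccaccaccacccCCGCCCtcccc
Col4a5: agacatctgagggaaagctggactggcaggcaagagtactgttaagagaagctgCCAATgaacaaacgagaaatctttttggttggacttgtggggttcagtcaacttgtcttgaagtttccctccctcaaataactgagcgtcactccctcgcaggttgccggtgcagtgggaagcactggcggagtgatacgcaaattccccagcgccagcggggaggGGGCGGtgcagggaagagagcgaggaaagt
Col4a6: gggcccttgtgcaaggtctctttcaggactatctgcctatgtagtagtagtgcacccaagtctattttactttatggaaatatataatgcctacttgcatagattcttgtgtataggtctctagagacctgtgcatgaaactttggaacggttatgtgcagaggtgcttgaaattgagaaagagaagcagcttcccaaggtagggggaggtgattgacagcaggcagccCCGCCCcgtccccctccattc
All 4 windows held 1 GC box, which 32.7% of the 32851 windows in the RefSeq table hold, and Col4a5 alone held a CCAAT box, which 33.8% hold. None held TATAAA, found in 12.4% of windows. Their GC content was 59.6% for Col27a1, 66% for Col23a1, 54% for Col4a5 and 47.6% for Col4a6, beside a median of 52.4% over all windows. These matches are a description of letters, and 80 of the 114 member genes had such a window.

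Col4a5 encodes a type IV collagen chain of basement membranes, the chain lost in X-linked Alport syndrome, and it had the largest called ratio of a member in the overexpressing lines. It read -0.62, -0.01 and 0.27 on the Sir2OE1 arrays, and -1.35, -1.35, -1.22 and -2.38 on the Sir2OE2 arrays. It read 1.09, 0.90 and 0.05 on the Sir2KD1 arrays, and 0.34, -0.29, 0.68 and 0.40 on the Sir2KD2 arrays. The 4 Sir2OE2 arrays were the lowest of the 14, and those of Sir2OE1 overlapped with the knockdown arrays. The fitted ratio was -0.13 ± 0.30 in Sir2OE1 (SE, n = 3; limma adjusted p = 0.969) and -1.58 ± 0.25 in Sir2OE2 (SE, n = 4; limma adjusted p = 0.00635), a 2.98-fold ratio. It was 0.67 ± 0.30 in Sir2KD1 and 0.28 ± 0.25 in Sir2KD2, neither called. Sir2OE1 minus Sir2OE2 was 1.45 ± 0.39 (SE), which did not pass (limma adjusted p = 0.244). The overexpressing minus the knockdown lines gave -1.33 ± 0.28 (SE; limma adjusted p = 0.0303), a call lost in 9 of 14 leave-one-out fits, with limma adjusted p up to 0.115.

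Its neighbour Col4a6, whose start lies 1343 bases away, was not called, with ratios of 0.62 ± 0.30 in Sir2OE1, -0.05 ± 0.26 in Sir2OE2, -0.40 ± 0.30 in Sir2KD1 and 0.06 ± 0.26 in Sir2KD2 (SE). The other type IV chains were not called either. Col4a1, one of the common chains of every basement membrane, was at 0.24 ± 0.23 in Sir2OE1, -0.71 ± 0.20 in Sir2OE2, -0.44 ± 0.23 in Sir2KD1 and -0.13 ± 0.20 in Sir2KD2 (SE). Col4a2, its partner chain, lay between -0.19 in Sir2KD1 and 0.19 in Sir2KD2. Col4a4 reached 1.12 ± 0.37 in Sir2KD2 (SE), with arrays from 0.15 to 2.06, and Col15a1 reached -1.67 ± 0.48 in Sir2KD1 (SE), with arrays of -3.06, -0.87 and -0.95. These ratios are as large as called ones but have wider errors, and they did not pass (limma adjusted p = 0.2 for Col4a4 and 0.0949 for Col15a1). Col18a1, the source of endostatin, was at 0.57 ± 0.20 in Sir2OE2 (SE) and was not called.

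Col7a1 makes the anchoring fibrils that hold skin to its basement membrane. It read -0.55, -0.91 and 0.11 on the Sir2OE1 arrays, and -0.85, -0.70, -1.27 and -0.94 on the Sir2OE2 arrays. It read 1.04, 0.38 and 0.49 on the Sir2KD1 arrays, and -0.03, 0.39, 0.29 and 0.63 on the Sir2KD2 arrays. Overexpression arrays were mostly below 0 and knockdown arrays mostly above it, and 1 array of Sir2OE1 overlapped with those of Sir2KD2. The fitted ratio was -0.43 ± 0.22 in Sir2OE1 (SE, n = 3; limma adjusted p = 0.599) and -0.94 ± 0.18 in Sir2OE2 (SE, n = 4; limma adjusted p = 0.02). It was 0.65 ± 0.22 in Sir2KD1 and 0.32 ± 0.18 in Sir2KD2, neither called. The overexpressing minus the knockdown lines gave -1.17 ± 0.20 (SE; limma adjusted p = 0.0116), a call lost without Sir2KD1 slide 1 (limma adjusted p = 0.0527). The Sir2OE2 call was lost when any 1 of that line's 4 arrays was left out, with limma adjusted p up to 0.141.

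Col16a1 encodes a collagen that attaches to fibrils without forming them. It read -0.68, -0.62 and -0.16 on the Sir2OE1 arrays, and -0.22, -0.18, -0.48 and -0.45 on the Sir2OE2 arrays. It read -0.61, -0.89 and -1.43 on the Sir2KD1 arrays, and -1.15, -0.79, -0.60 and -0.52 on the Sir2KD2 arrays. In the deposited, centred values it was on the minus side on all 14 arrays, like Col27a1, and these were the only 2 member probes with one side throughout, a share of 1.57% against 1.07% of all probes. With the centring undone, Col27a1 kept the minus side on all 14 arrays, while Col16a1 read 0.218 on Sir2OE1 slide 3. The fitted ratio was -0.48 ± 0.19 in Sir2OE1 and -0.33 ± 0.16 in Sir2OE2, neither called. It was -0.98 ± 0.19 in Sir2KD1 (SE, n = 3; limma adjusted p = 0.019) and -0.76 ± 0.16 in Sir2KD2 (SE, n = 4; limma adjusted p = 0.0514), just short of a call. Without slide 2 or slide 3 of Sir2KD1 the call in that line was lost, with limma adjusted p up to 0.0941.

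The genes of the most abundant fibrillar collagens did not pass in any line. Col1a1, the main chain of type I collagen, had ratios of -0.19 ± 0.23 in Sir2OE1, -0.25 ± 0.19 in Sir2OE2, 0.03 ± 0.23 in Sir2KD1 and 0.28 ± 0.19 in Sir2KD2 (SE). Of the 12 fibrillar collagen probes, 1 was called in any line, and of the 8 basement membrane collagen probes 1. Of the 24 other collagen probes 3 were called in any line (all probes: 6.4%). The median of the fibrillar collagen probes was -0.19 in Sir2OE1, -0.06 in Sir2OE2, 0.03 in Sir2KD1 and 0.16 in Sir2KD2.

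**Figure D2:**
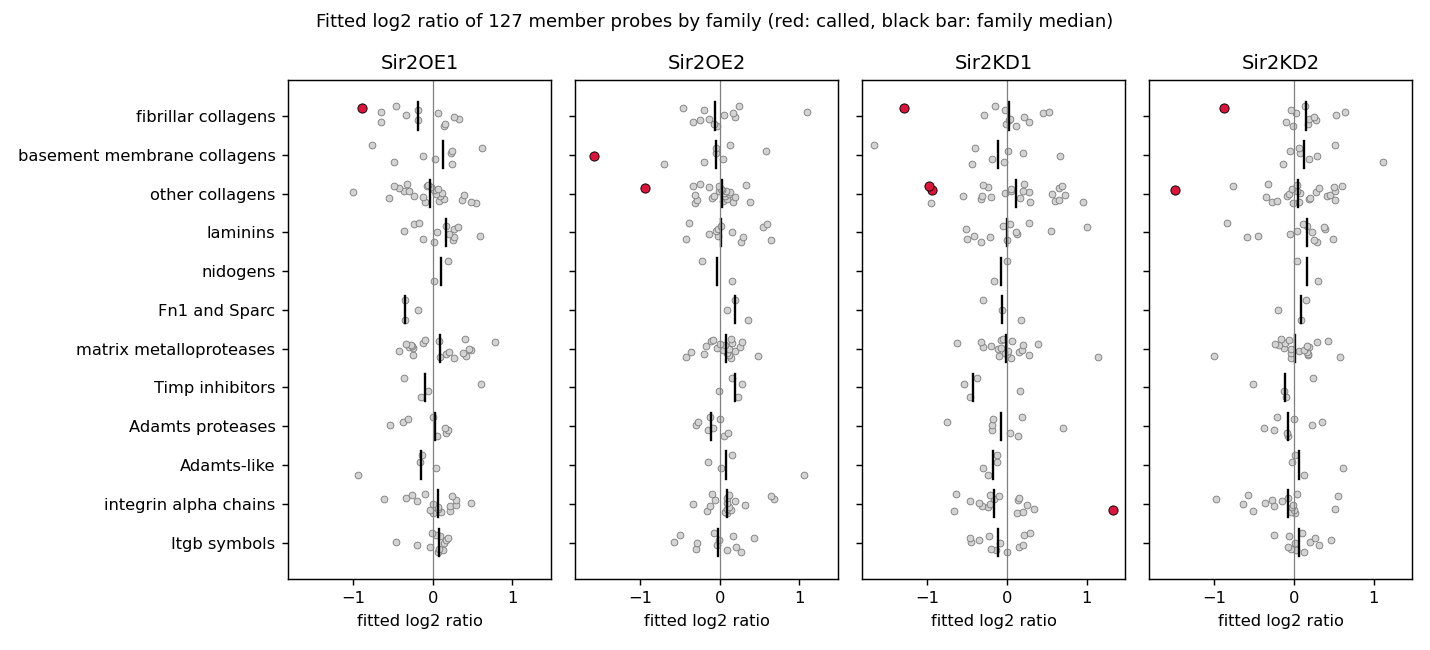
Fitted log2 ratio (horizontal axis) of the 127 member probes in each line, 1 row a family, with called probes in red and the family median as a black bar. The family medians run from -0.42 to 0.19, and the called probes stand at the edge of the collagen rows and, for Itgam, of the integrin alpha row.

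No laminin probe of 13 was called by limma, and 5 had an unadjusted p under 0.05 in some line (all probes: 6.4% and 37%). Lama5, the laminin chain of the islet's vascular basement membrane, was on the plus side in every line, at 0.32 ± 0.34 in Sir2OE1, 0.54 ± 0.29 in Sir2OE2, 1.00 ± 0.34 in Sir2KD1 and 0.37 ± 0.29 in Sir2KD2 (SE). Its arrays ran from -0.22 to 0.77 in Sir2OE1, from -0.36 to 1.10 in Sir2OE2, from 0.46 to 1.39 in Sir2KD1 and from -0.42 to 0.91 in Sir2KD2. All lines but Sir2KD1 thus had arrays on both sides of 0, and the lowest limma adjusted p of Lama5 was 0.159, in Sir2KD1. Lamb1 was at 0.27 ± 0.35 in Sir2OE1, 0.29 ± 0.29 in Sir2OE2, -0.21 ± 0.35 in Sir2KD1 and -0.58 ± 0.29 in Sir2KD2 (SE). Lamc1, the gamma chain shared by most laminins, was measured with a smaller error and stayed between -0.04 ± 0.14 in Sir2KD1 and 0.16 ± 0.12 in Sir2KD2 (SE). The nidogens, which link laminin to type IV collagen, ranged from -0.22 to 0.30 over the 4 lines.

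Fibronectin, a soluble and fibrillar ligand of integrins, was read by 2 Fn1 probes, and neither was called. The more precise probe gave -0.18 ± 0.11 in Sir2OE1, 0.09 ± 0.10 in Sir2OE2, -0.06 ± 0.11 in Sir2KD1 and -0.20 ± 0.10 in Sir2KD2 (SE). Sparc, a collagen-binding matrix glycoprotein, gave -0.35 ± 0.19 in Sir2OE1, 0.35 ± 0.16 in Sir2OE2, 0.17 ± 0.19 in Sir2KD1 and 0.09 ± 0.16 in Sir2KD2 (SE). The overexpressing lines lay on opposite sides for Sparc, and their difference of -0.70 ± 0.25 (SE) did not pass (limma adjusted p = 0.484).

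**Figure D3:**
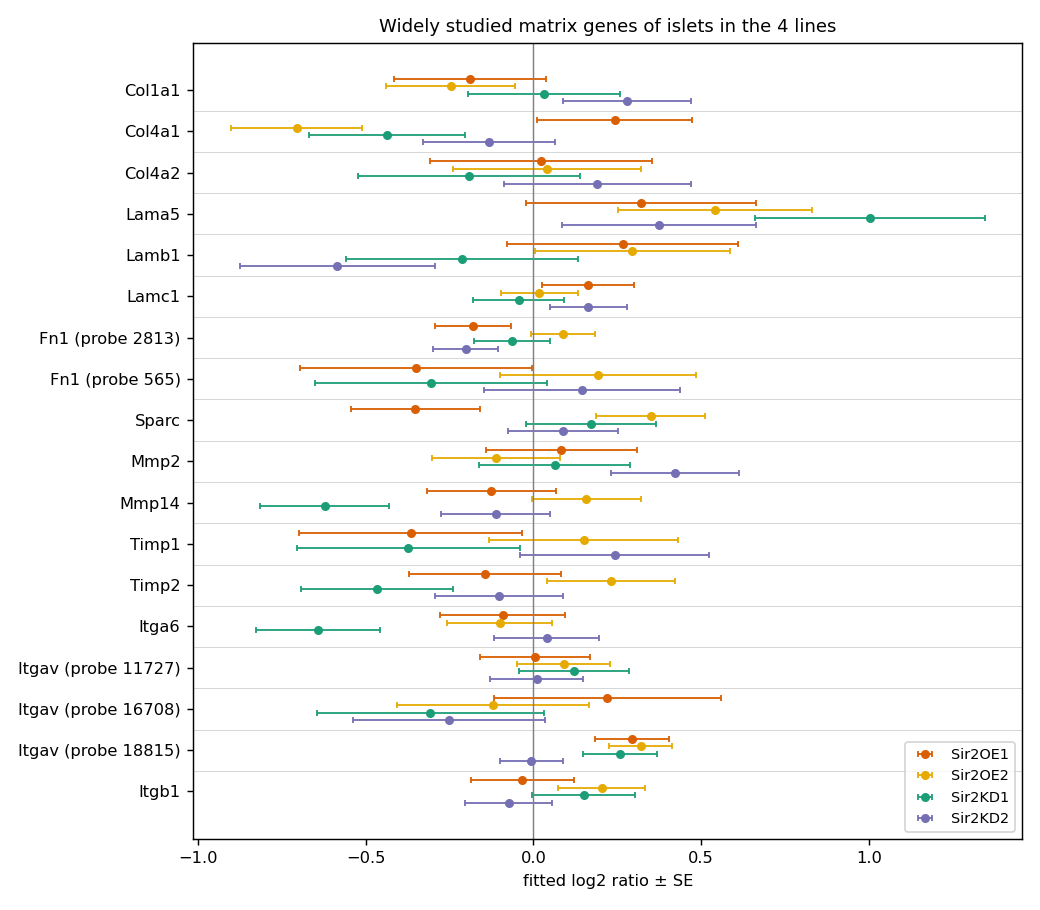
Fitted log2 ratio ± SE (horizontal axis) of 15 widely studied matrix genes, 1 row a probe, with the 4 lines in colour. None of these probes was called in any line, and the ratios run from -0.71 for Col4a1 in Sir2OE2 to 1.00 for Lama5 in Sir2KD1.

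Among integrins, Itgam was called, in Sir2KD1 alone. Itgam (CD11b) is the alpha chain that pairs with the Itgb2 chain on myeloid cells. It read -0.21, 0.26 and -0.11 on the Sir2OE1 arrays and 0.32, 0.01, -0.14 and 0.37 on the Sir2OE2 arrays. It read 1.70, 0.79 and 1.44 on the Sir2KD1 arrays and 0.27, -0.40, -0.12 and 0.26 on the Sir2KD2 arrays. The Sir2KD1 arrays stood above the other 11 without overlap. The fitted ratio was -0.04 ± 0.21 in Sir2OE1, 0.14 ± 0.175 in Sir2OE2, 1.34 ± 0.21 in Sir2KD1 (SE, n = 3; limma adjusted p = 0.00565) and 0.00157 ± 0.175 in Sir2KD2. Sir2KD1 minus Sir2KD2 was 1.34 ± 0.27 (SE), which missed the threshold (limma adjusted p = 0.0625), and leaving out slide 1 of Sir2KD1 ended the Sir2KD1 call (limma adjusted p = 0.106).

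Its partner Itgb2 was on the minus side in 3 lines and was not called, at -0.46 ± 0.20 in Sir2OE1, -0.58 ± 0.17 in Sir2OE2, -0.45 ± 0.20 in Sir2KD1 and 0.20 ± 0.17 in Sir2KD2 (SE). Of 5 leukocyte markers measured (Ptprc, Cd68, Cd14, Adgre1 and Cd3e), 0 were called in any line (all probes: 6.4%). In some line 2 had an unadjusted p under 0.05 (all probes: 37%). Their ratios in Sir2KD1 ran from -0.14 to 0.54, with a median of 0.21 over the 5 markers. The part of such cells in the Itgam ratio was not tested.

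Itga7, a laminin-binding alpha chain known from muscle, was not called in any single line but differed between kinds, for which it is described here with its values in view. It read 0.59, 0.49 and 0.36 on the Sir2OE1 arrays and 0.11, -0.05, 0.17 and 0.13 on the Sir2OE2 arrays. It read -0.28, -0.44 and -0.35 on the Sir2KD1 arrays and -0.50, -0.26, -0.44 and -0.26 on the Sir2KD2 arrays. Every knockdown array was below every overexpression array. The overexpressing minus the knockdown lines gave 0.64 ± 0.11 (SE; limma adjusted p = 0.00899), and the call held under each left-out array. It was lost with slide number as a replicate block (limma adjusted p = 0.087).

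The integrin chains best known in beta cells did not pass. Itgb1, the beta chain of most matrix-binding integrins, was at -0.03 ± 0.15 in Sir2OE1, 0.20 ± 0.13 in Sir2OE2, 0.15 ± 0.15 in Sir2KD1 and -0.07 ± 0.13 in Sir2KD2 (SE). Itga6, a laminin-binding alpha chain, was at -0.09 ± 0.19 in Sir2OE1, -0.10 ± 0.16 in Sir2OE2, -0.64 ± 0.19 in Sir2KD1 and 0.04 ± 0.16 in Sir2KD2 (SE), with limma adjusted p = 0.0964 in Sir2KD1. Itgav, the alpha chain that binds fibronectin and vitronectin, was read by 3 probes. The probe with the smallest error gave 0.29 ± 0.11 in Sir2OE1, 0.32 ± 0.09 in Sir2OE2, 0.26 ± 0.11 in Sir2KD1 and -0.01 ± 0.09 in Sir2KD2 (SE). Another probe lay between 0.004 in Sir2OE1 and 0.12 in Sir2KD1. The last ran from -0.31 in Sir2KD1 to 0.22 in Sir2OE1. Of the 17 integrin alpha probes 1 was called in any line, and of the 12 Itgb probes 0 (all probes: 6.4%). At an unadjusted p under 0.05 in some line stood 5 of those 12 (all probes: 37%).

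No metalloprotease, Adamts, Adamts-like or Timp probe was called in any line, over 20, 8, 4 and 4 probes (all probes: 6.4%). Of these, 5, 2, 1 and 0 had an unadjusted p under 0.05 in some line (all probes: 37%). With so few probes, 0 called does not set these families apart from the array. Mmp2, a gelatinase, was at 0.08 ± 0.23 in Sir2OE1, -0.11 ± 0.19 in Sir2OE2, 0.06 ± 0.23 in Sir2KD1 and 0.42 ± 0.19 in Sir2KD2 (SE). Mmp14, the membrane-anchored protease that activates the Mmp2 precursor, was at -0.13 ± 0.19 in Sir2OE1, 0.16 ± 0.16 in Sir2OE2, -0.62 ± 0.19 in Sir2KD1 and -0.11 ± 0.16 in Sir2KD2 (SE). Its 3 Sir2KD1 arrays read -0.87, -0.75 and -0.27, all on the minus side, and the ratio did not pass (limma adjusted p = 0.118). Mmp23 came nearest to a call among the proteases, at 1.14 ± 0.29 in Sir2KD1 (SE; limma adjusted p = 0.0628), with arrays of 1.74, 0.25 and 1.32.

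Timp1 was at -0.37 ± 0.33 in Sir2OE1, 0.15 ± 0.28 in Sir2OE2, -0.37 ± 0.33 in Sir2KD1 and 0.24 ± 0.28 in Sir2KD2 (SE). Timp2, which also takes part in Mmp2 activation, was at -0.14 ± 0.23 in Sir2OE1, 0.23 ± 0.19 in Sir2OE2, -0.47 ± 0.23 in Sir2KD1 and -0.10 ± 0.19 in Sir2KD2 (SE). The Timp medians over 4 probes were -0.10, 0.19, -0.42 and -0.12 in Sir2OE1, Sir2OE2, Sir2KD1 and Sir2KD2. The Adamts proteases, which cut procollagens and proteoglycans, ranged from -0.75 to 0.70 over the lines, and their lowest adjusted p was 0.378, for Adamts7 in Sir2OE1.

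Across the members, a large ratio and a call were different things. A log2 ratio beyond 1 in size was reached by 1, 3, 5 and 3 members in Sir2OE1, Sir2OE2, Sir2KD1 and Sir2KD2 (all probes: 1.85%, 1.83%, 4.66% and 1.35%), and 0, 1, 2 and 1 of these were called. The standard error of a member ran from 0.111 to 0.796 in the 3-array lines, with a median of 0.226, and from 0.0937 to 0.673 in the 4-array lines, with a median of 0.191. A call over all probes needed a ratio of at least 0.531, 0.393, 0.449 and 0.447 in size in Sir2OE1, Sir2OE2, Sir2KD1 and Sir2KD2. Adamtsl1 at 1.06 in Sir2OE2, Col11a1 at 1.09 in Sir2OE2 and Mmp1a at -1.01 in Sir2KD2 were among the large ratios with wide errors. At an unadjusted p under 0.05 stood 12, 13, 20 and 14 members (9.45%, 10.2%, 15.7% and 11%), against 9.61%, 13.2%, 16.8% and 13.4% of all probes.

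**Figure D4:**
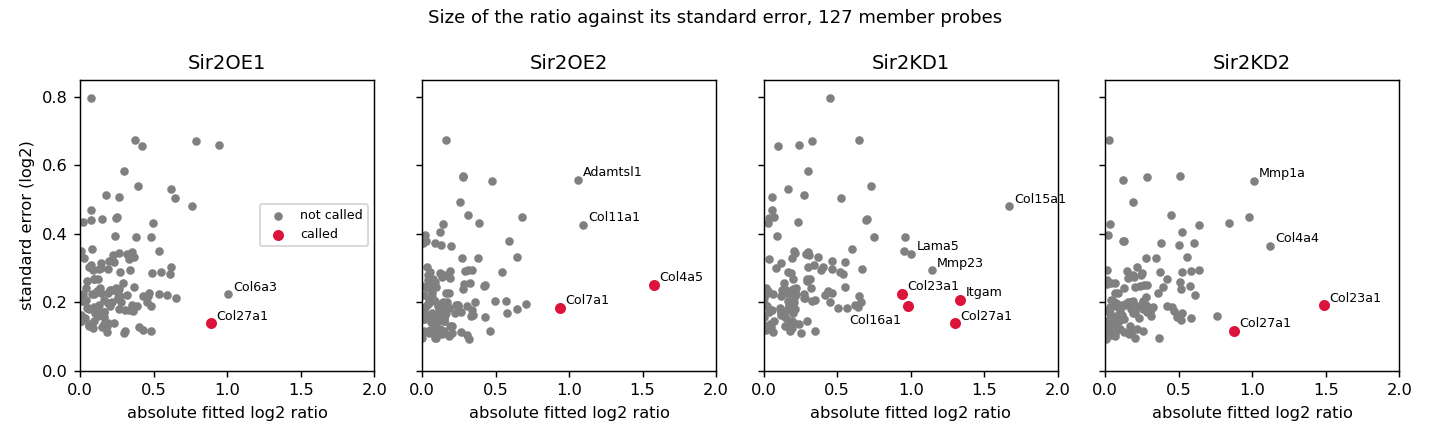
Standard error (vertical axis, log2) against the size of the fitted log2 ratio (horizontal axis) for the 127 member probes in each line, called probes in red. Called members have ratios of at least 0.88 in size and errors of at most 0.25, and uncalled members as large as these mostly have larger errors, such as 0.48 for Col15a1 in Sir2KD1.

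Genes with several probes show how far a single probe can be read. In 20 of 40 combinations of the 10 such genes with the 4 lines, all probes of the gene were on one side of 0. The 3 probes of Col6a3, a chain of the microfibrillar type VI collagen, gave 0.09, 0.11 and -1.001 in Sir2OE1, and the last had limma adjusted p = 0.0747. For Lama3 in Sir2OE2 the probes gave 0.65, 0.59 and -0.43, none of them called. The 2 Adamts9 probes gave 0.70 and -0.19 in Sir2KD1. All 6 called members were read by a single probe, so no second probe bears on their ratios.

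**Figure D5:**
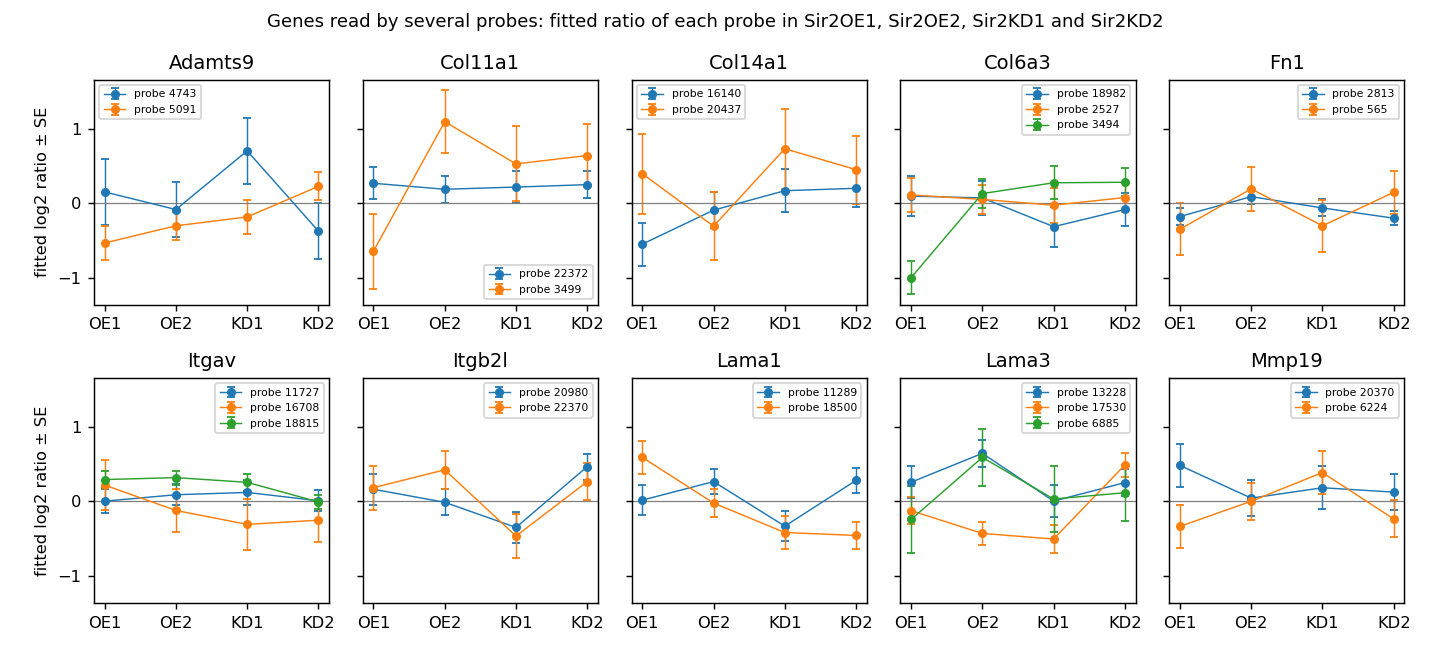
Fitted log2 ratio ± SE (vertical axis) of each probe of the 10 member genes read by several probes, in Sir2OE1, Sir2OE2, Sir2KD1 and Sir2KD2 (OE1 to KD2 on the horizontal axis); lines join the values of a probe. The widest spread between probes of a gene within a line is 1.11 for Col6a3 in Sir2OE1.

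Differences between lines of a kind were called for no member. Sir2OE1 minus Sir2OE2 was called for 0 members (all probes: 0.323%), with 11 members at an unadjusted p under 0.05, a share of 8.66% against 7.48% of all probes. Sir2KD1 minus Sir2KD2 was called for 0 members (all probes: 0.689%), with 13 at an unadjusted p under 0.05, a share of 10.2% against 11.8% of all probes. Col15a1 had the widest gap between knockdown lines, at -2.19 ± 0.63 (SE), and Adamtsl1 the widest between overexpressing lines, at -1.997 (limma adjusted p = 0.182 for Col15a1 and 0.636 for Adamtsl1). The overexpressing minus the knockdown lines were called for 4 members (all probes: 2.66%): Col23a1, Col4a5, Col7a1 and Itga7. That set depends on having the same channel on top for overexpression and knockdown. With the knockdown values turned the other way it was again 4 members (all probes: 4.99%), Col16a1, Col23a1, Col27a1 and Itgav, and Col23a1 was in both. Itgav passed there by its probe with the smallest error (limma adjusted p = 0.0371), and its other probes did not (limma adjusted p = 0.761 and 0.767).

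By the centred values of single arrays rather than by fit, 4 members had all 7 overexpression arrays on the plus side and 8 had them all on the minus side (all probes: 4.33% and 4.27%). The knockdown arrays were all plus for 3 members and all minus for 9 (all probes: 4.54% and 4.78%). The minus shares were 6.3% and 7.09% of members. No member had all overexpression arrays on one side and all knockdown arrays on the other (all probes: 0.555%). Col1a1 and Col3a1, the main chains of the type I and type III fibrils, were among the 8 on the minus side on every overexpression array, and Sparc was among the 3 on the plus side on every knockdown array. None of these 3 was called. With the centring undone, Col3a1 stayed on the minus side on all 7 overexpression arrays, while Col1a1 read 0.176 on Sir2OE1 slide 1.

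Genes around the matrix that the rule left out were read in 5 lists, chosen with earlier results of these data known. Shares called in such lists do not set their genes apart from the array. Of 94 such genes measured, 12 had a probe called in at least 1 line, and by probes this was 13 of 112, beside 6.4% of all probes. The matrix receptors and glypicans held 4 of these 12 among 14 genes, read by 18 probes (all probes: 6.4%). Bcam, a laminin receptor of the immunoglobulin family, was called in both overexpressing lines, at -0.77 ± 0.13 in Sir2OE1 (SE; limma adjusted p = 0.0213) and -1.16 ± 0.11 in Sir2OE2 (SE; limma adjusted p = 0.000268). The heparan sulfate carriers Gpc4 and Sdc1 were called on the minus side in Sir2KD1, Gpc4 by both its probes at -1.38 and -1.89 and Sdc1 at -1.45. Sdc2, another syndecan, was called on the plus side there at 0.89. The Gpc4 probes were at 0.014 and -0.00175 in Sir2KD2, and Sir2KD1 minus Sir2KD2 was called for 1 of its probes (-1.89 ± 0.30, SE; limma adjusted p = 0.0212).

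Of 37 other matrix proteins, read by 44 probes, 4 were called in a line (all probes: 6.4%). The called probe of Agrn, a basement membrane proteoglycan, was at -0.93 in Sir2KD2, where its other probes read -0.19 and 0.29 and were not called. Ltbp3, which binds latent TGF-beta, was at -1.35 in Sir2KD2. Fbln5, an elastic fibre protein, was at 1.12 in Sir2KD1, and Tnxb, a tenascin, at 0.87 in Sir2OE2. Of 16 genes of collagen making, read by 19 probes, 3 were called in a line (all probes: 6.4%). The procollagen C-proteinase Bmp1 was at -1.16 and its enhancer Pcolce at -0.89, both in Sir2KD1, and the collagen cross-linking oxidase Loxl2 was at 0.87 in Sir2OE2. The uncalled probes of Bmp1 in Sir2KD1 and of Loxl2 in Sir2OE2 read -1.15 and 0.74. Of 14 other pericellular proteases and inhibitors, read by 15 probes, 1 was called in a line (all probes: 6.4%). It was Adam23, at -1.23 in Sir2KD1. None of 13 genes of the integrin adhesion complex was called in any line (all probes: 6.4%), with ratios from -0.56 to 0.69. At an unadjusted p under 0.05 in some line stood 6 of its 16 probes (all probes: 37%).

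Markers of cells that make matrix in the pancreas did not pass. Of 9 fibroblast and stellate cell markers 0 were called by limma in any line, with ratios from -0.93 to 0.91. Of 6 endothelial markers 0 were called (all probes: 6.4%), with ratios from -0.99 to 0.70. At an unadjusted p under 0.05 in some line stood 3 of the 12 fibroblast and stellate cell probes and 3 of the 6 endothelial ones, beside 37% of all probes. Of 12 beta-cell markers, a list also chosen with earlier results known, 5 were called in at least 1 line (all probes: 6.4%). Ins2, Iapp, Nkx6-1, Abcc8, Kcnj11, Chga and G6pc2 were not called in any line. Iapp, Chga and G6pc2 read almost the same value as each other on every overexpression array, so these are not separate readings. Slc2a2, the glucose transporter of beta cells, was called on the minus side in all 4 lines, at -0.90 in Sir2OE1, -1.50 in Sir2OE2, -2.08 in Sir2KD1 and -0.89 in Sir2KD2. Pcsk1 was called on the plus side in Sir2OE1, Sir2OE2 and Sir2KD2. Pdx1 was called in Sir2KD1 and Neurod1 in Sir2OE2 and Sir2KD1, all on the minus side, and Isl1 was called on the plus side in Sir2OE1 and the minus side in both knockdown lines. The part of these shifts in the matrix ratios was not tested.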

How the data were processed

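RNA of MIN6-derived lines was compared on 14 two-colour arrays, 3 or 4 a line, grouped by line from the labels. The authors deposited a table of log2 ratios of the channels; software, background correction and normalization: not given in the sources used here. Tests on the values showed that they were centred per probe over 6 of the 7 arrays of each kind, leaving out Sir2OE1 slide 2 and Sir2KD1 slide 2 (largest deviation of the sum 5.6e-08). Array medians lay between -0.0347 and 0.0165. Scale and centring are thus known; the direction is not. Arrays with the line in channel 1 were turned.

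The platform annotation gave a single symbol to 16885 of 23232 probes and several to 143, and 6204 have no entry in it. Entrez identifiers served to update 16205 symbols from RefSeq's table of GRCm38.p6, which also gave the promoter windows. Each probe measured at least 2 times in each line (23230) entered a linear model (limma 3.58.1, R 4.3.3, lmFit and eBayes), with a coefficient per line and a dye term per kind, and Benjamini-Hochberg adjustment over all of them at 0.05. Each line was tested against 0, and differences between lines and between kinds as contrasts. The fit was tested on simulated data. Intensities were not used here; precision is limited by the number of arrays. No set test was run.

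The members and the gene lists (other matrix proteins, matrix receptors and glypicans, collagen making, integrin adhesion complex, other pericellular proteases, and beta-cell, fibroblast and stellate, endothelial and leukocyte markers) were chosen with earlier results of these data known. Named genes were members called in both lines of a kind, the 8 largest called per line, and 15 widely studied matrix genes; others were named after their values were seen. Alternatives were the dye term, the turn, the scale of the arrays, a robust variance prior, the shared ratios, a slide block, the line as unit, and each array left out.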

Additional observations from a re-analysis of the deposited data

Results flagged for a closer look

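In the lines with 4 arrays, 48 sets of 4 values were looked at for an array far from the other 3, which chance gives in about 1 in 20 sets, and 5 had one. Col4a5 read -2.38 on Sir2OE2 slide 4, where the other 3 arrays of that line read -1.35 to -1.22. Col27a1 read -1.06 on Sir2KD2 slide 2, where the others read -0.829 to -0.799. Timp1 read 1.03 on Sir2KD2 slide 2, against -0.0463 to 0.00447 on the others. Timp2 read 0.554 on Sir2OE2 slide 4, against 0.0751 to 0.156, and Mmp14 read 0.462 on Sir2OE2 slide 1, against 0.0312 to 0.105. The Col4a5 and Col27a1 calls in those lines held without these arrays.

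The overexpressing minus the knockdown lines differed by the limma contrast for 4 members. The differences were 1.24 for Col23a1, -1.17 for Col7a1, -1.33 for Col4a5 and 0.644 for Itga7, with adjusted p of 0.00982, 0.0116, 0.0303 and 0.00899. They require 1 channel on top in overexpression and knockdown alike.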

How the results depend on the processing

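The ratios of the called members kept their sign in each alternative in which they were refitted; unturned values, the line as the unit and the other channel on top gave counts alone. The unturned fit also dropped the dye term. Among the refits, only those with the line as replicate or random block have calls over all probes here. The member counts of the other refits therefore cannot be set against the array as a whole. With no dye term, called members numbered 4 in Sir2OE1, 7 in Sir2OE2, 11 in Sir2KD1 and 5 in Sir2KD2, with 1 in both overexpressing lines, 4 in both knockdown lines, 1 and 2 that differed between the overexpressing and between the knockdown lines, and 10 between kinds. With 1 dye term for both kinds, Sir2OE1 had 3, both overexpressing lines 1, and the knockdown lines differed for 1. The centring already took out a channel mean for each kind. Fits with 1 dye term or none do not count this in full, so their p-values run too small. With values not turned and no dye term, 0 members were called in Sir2OE1, Sir2OE2, Sir2KD1, Sir2KD2, both knockdown lines and between kinds, and 2 differed between knockdown lines. The centring holds unturned values of a kind near a sum of 0, so these counts do not bear on the turn. With arrays scaled to one spread, Sir2OE2 had 5 and both overexpressing lines 1; Col23a1 in Sir2KD1 lost its call (adjusted p = 0.128), and the 2 members called in both knockdown lines were then Col16a1 and Col27a1. A robust variance prior left 1 in both knockdown lines, since Col23a1 in Sir2KD1 moved to adjusted p = 0.0513. With the line as the replicate, 0 members were called for either kind, but 0 of all probes were called too. That count therefore does not set the members apart. Members at an unadjusted p under 0.05 numbered 9 and 13 in the overexpressing and knockdown lines (all probes: 1623 and 2361). With the line as a random block, 2 and 4 members were called (all probes: 464 and 567). Centring arrays, complete probes alone and leaving out probes that share a ratio kept each count within 1.5 times.

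Of 19 pairs of arrays with the same slide number, 0 correlated above 0.1 (-0.377 to 0.0741). The centring pulls the summed arrays of a kind apart, and arrays of different kinds share no RNA. Whether slide numbers pair the arrays could therefore not be judged. With slide number as a replicate block, called members numbered 0 in Sir2OE1, 1 in Sir2OE2 and 1 between kinds. The counts in Sir2KD1, Sir2KD2 and both knockdown lines were 3, 2 and 2. Calls lost were Col27a1 in Sir2OE1, Col7a1 in Sir2OE2 and Col16a1 in Sir2KD1 (limma adjusted p = 0.0962, 0.0826 and 0.204). Between kinds, Col7a1, Col4a5 and Itga7 were lost (limma adjusted p = 0.0708, 0.14 and 0.087).

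Leaving out each array in turn gave 0 to 2 called members in Sir2OE1, 1 to 3 in Sir2OE2, 2 to 5 in Sir2KD1, 2 to 3 in Sir2KD2, 0 in both overexpressing lines, 1 to 3 in both knockdown lines, 0 between overexpressing lines, 0 to 1 between knockdown lines and 2 to 4 between kinds. Without Sir2OE1 slide 1 or 3 that line had 0, and 2 without Sir2KD2 slide 3. Without any 1 of its arrays Sir2OE2 had 1. Without Sir2KD1 slide 3 that line had 2. The lowest count between kinds, 2, came without Sir2KD1 slide 1, and the 1 between knockdown lines without its slide 1 or slide 2. In 10 of the 14 fits 1 member was called in both knockdown lines. The cause of these shifts was not tested, and calls over all probes are not given for these fits. Signal over background is unknown here, and lines with 3 arrays have wider errors.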
